A study of Mus musculus with 28 samples.

Results

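The IL-12 family cytokine genes Il12a, Il12b, Il23a and Il27 were followed in scaffold implants of tumor-bearing and healthy mice. Every assay carrying 1 of these 4 gene symbols was taken, which gave 7 of the 648 assays of the panel, or 4 of its 584 genes. Il12a, Il12b and Il23a had 2 assays each and Il27 had 1. Assays of 1 gene are named here by the length of the amplified fragment, such as the Il12b 63-base assay. They read the same transcripts of the same gene and are not independent genes.

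Cytokines of this family are heterodimers secreted mainly by dendritic cells and macrophages. Il12a encodes p35 and Il12b encodes p40, which pair to form IL-12, an inducer of interferon gamma in T helper 1 and natural killer cells. The p40 chain also pairs with p19, the product of Il23a, to form IL-23, which sustains interleukin 17 producing lymphocytes. Il27 encodes p28, which pairs with the Ebi3 chain to form IL-27, a cytokine with both activating and suppressive effects on T cells. Both chains of a dimer are needed for the secreted cytokine, and the assays here measured the transcript of each chain alone.

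The samples were 28 total RNA preparations from microporous polycaprolactone (PCL) scaffolds, polymer implants that fill with host immune, stromal and epithelial cells and are called a synthetic niche in the labels. All 28 came from female BALB/c mice with such an implant. Tumor-bearing mice (n = 14) had been inoculated with 4T1-luc2-tdTomato cells, a marked mouse mammary carcinoma line, and healthy mice (n = 14) were free of tumor at the time of analysis. Scaffolds were taken at day 7 (3 healthy, 3 tumor-bearing), day 14 (8 and 8) and day 21 (3 and 3) after inoculation. The labels list the tumor line for the healthy mice too, so condition at analysis formed the groups. The sources used here do not give the age of the mice, or what the healthy mice were inoculated with. The series text calls the 28 samples biological replicates.

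Expression was read by TaqMan RT-qPCR on an inflammation panel. A reaction yields a quantification cycle (Cq), the cycle at which the signal crosses its threshold, and an earlier cycle means more template. The log2 relative quantity used below is the log2 of the deposited normalized ratio, equal to the mean Cq of 5 reference assays of the panel minus the Cq of the assay. A difference of 1 on this scale is a 2-fold difference. Amplification efficiency differs between assays. Where Cq values or levels of different assays are set side by side below, they do not give a ratio of transcript amounts.

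Samples yielded a Cq for 475 to 587 assays. The 2 samples with the fewest were 1 healthy and 1 tumor-bearing day 14 sample on panel E. Panels were 7 physical arrays, lettered A to G here, of which D held only day 14 healthy and G only day 14 tumor-bearing samples, 4 each. Elsewhere both conditions of a day met on a panel in 10 pairs, 3 at day 7, 4 at day 14 and 3 at day 21. Of the fixed cell type lists, the monocyte and macrophage markers had median Cq values from 17.5 for Mrc1 to 23.009 for Cd163. Between them, Itgam was at 17.9 and Cx3cr1 at 22.013. Fn1 of the matrix list was at 14.7, Krt8 of the epithelial list was detected in 23 of 28 samples, and the lists of natural killer, B cell and endothelial markers had 0 assays on the panel.

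Upstream sequence was available for Il12a and Il12b, and it is shown because the 2 genes encode the chains of one dimer and were measured side by side. The windows are the 250 bases before an annotated transcription start in RefSeq, build GRCm38.p6, plus strand, written 5′ to 3′. Capitals mark matches to 6 searched motifs, on both strands: an NF-kappaB core GGGGAATT, a kB decamer (GGG, any 5 bases, CC), C/EBP TTGCNNAA, AP-1 TGANTCA, an ISRE core (GAAA, any 2 bases, GAAA) and a TATA box TATAAA. The letters of the NF-kappaB core were chosen after the Il12b sequence had been seen.
Il12b, chr11:44399813-44400062: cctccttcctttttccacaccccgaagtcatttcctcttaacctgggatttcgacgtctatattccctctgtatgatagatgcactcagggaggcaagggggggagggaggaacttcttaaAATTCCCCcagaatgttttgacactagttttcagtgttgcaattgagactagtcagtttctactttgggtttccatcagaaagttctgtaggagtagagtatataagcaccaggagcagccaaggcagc
Il12a, second annotated start, chr3:68691174-68691423: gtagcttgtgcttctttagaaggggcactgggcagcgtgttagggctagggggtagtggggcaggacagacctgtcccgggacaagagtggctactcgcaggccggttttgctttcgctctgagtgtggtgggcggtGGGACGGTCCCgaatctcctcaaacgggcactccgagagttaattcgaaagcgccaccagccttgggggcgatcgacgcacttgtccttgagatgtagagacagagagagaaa
In the Il12b window the NF-kappaB core on the minus strand, AATTCCCC, lay 129 to 122 bases before the start, and 0.73% of 32841 RefSeq windows of the same length hold this motif. In the Il12a window the kB decamer matched on both strands in overlapping positions, 113 to 104 and 112 to 103 bases before the start, and 45.81% of windows hold it. The window before the other annotated Il12a start, chr3:68690394-68690643, held no match, nor did any of the 3 windows hold C/EBP, AP-1, ISRE core or TATA box letters, which 9.57%, 6.75%, 2.98% and 12.37% of windows hold. Only these exact letters were searched, so the absence of a match does not mean the absence of an element. The Il12b window holds TATATAA, for example, which the TATA box letters do not match. A match in letters is a description and was not tested for binding.

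All 4 genes were detected in every group, late in the reaction. Of 196 member reactions, 11 gave no Cq, and 7 had a Cq above 30. Median Cq was 26.9 and 28.4 for the Il12a 68- and 56-base assays, 25.9 for the Il12b 75-base assay and 25.98 for its 63-base assay, 27.8 and 28.4 for the Il23a 61- and 109-base assays, and 27.2 for Il27. Of 639 assays with a median Cq, 73.7% had an earlier one than the earliest of these 7. The Il12a 56-base assay gave a value in all 28 samples, while the Il23a 61-base assay missed 4, which were 1 at day 7 and 3 at day 14.

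Late cycles went with wide scatter. The standard deviation within groups ranged from 0.53 for Il27 to 1.31 for the Il12a 68-base assay, against a median of 0.47 over 594 assays. Among the 70 assays whose median Cq lay in the range of the members the median was 0.86. Il27 was tighter than most of these, with 7.1% of them below it, and the Il12a 68-base assay was looser, with 81.4% below it. In bulk samples such as these, fewer cells of a type and less RNA per cell cannot be told apart.

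**Figure D1:**
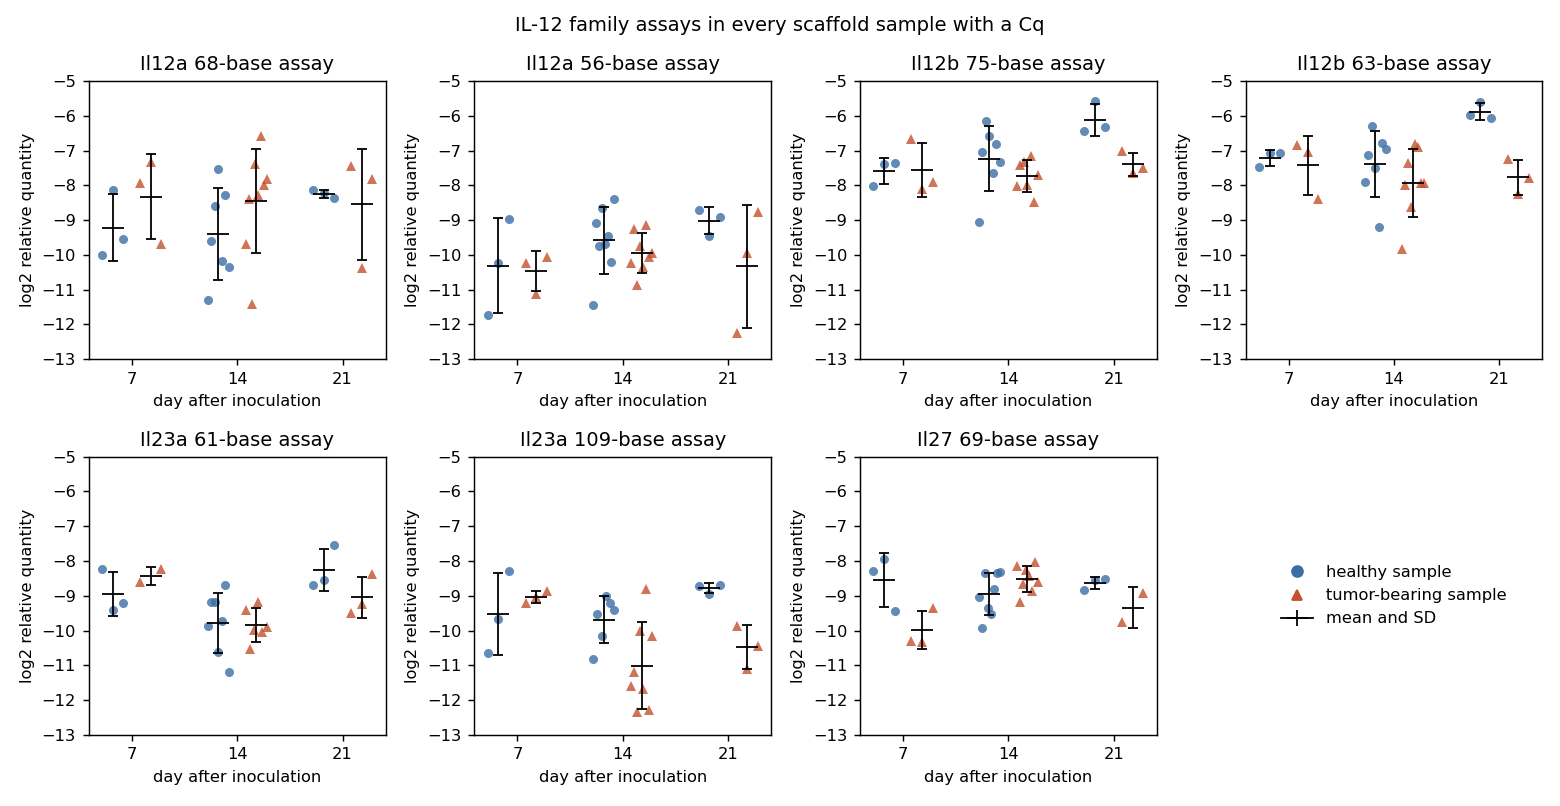
Log2 relative quantity of the 7 IL-12 family assays (vertical axis) at days 7, 14 and 21 (horizontal axis), with circles for healthy samples, triangles for tumor-bearing samples, and bars for the mean and SD of each group. At day 21 the 3 healthy samples lie above all 3 tumor-bearing samples in both Il12b assays and in the Il23a 109-base assay.

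Il12b, the shared p40 chain, was highest in the day 21 healthy scaffolds and lower at day 21 in tumor-bearing mice, although the difference did not pass the threshold after adjustment over all assays. With the 63-base assay the 3 healthy samples at day 21 stood at -5.99, -5.61 and -6.05, and the 3 tumor-bearing samples at -7.25, -8.26 and -7.79. The healthy samples were all higher and the groups did not overlap. The tumor-bearing minus healthy difference was -1.88 ± 0.64 (SE, n = 3 and 3), a fold of 0.271 with a 95% interval of 0.108 to 0.678 (limma, unadjusted p = 0.0073, adjusted p = 0.26).

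The 75-base assay of Il12b showed the same order. Its healthy day 21 samples read -6.43, -5.58 and -6.34, and the tumor-bearing ones read -7.02, -7.65 and -7.51. Again the 2 groups were apart, by a difference of -1.28 ± 0.52 (limma, unadjusted p = 0.023, adjusted p = 0.43), or 0.413-fold with an interval of 0.195 to 0.875. Averaging both assays, a step added after the data were seen, put Il12b at -1.58 ± 0.51 at day 21 (limma, adjusted p = 0.19).

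At the earlier days Il12b did not separate the conditions. At day 7 the 63-base assay read -7.47, -7.08 and -7.06 in healthy and -6.84, -7.04 and -8.40 in tumor-bearing mice, and the 75-base assay -8.03, -7.40 and -7.35 against -6.67, -8.10 and -7.90. The groups overlapped fully in both assays, and the differences of -0.22 ± 0.64 and 0.03 ± 0.52 had an adjusted p of 0.997 (limma).

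At day 14 the 63-base assay of Il12b ran from -9.21 through a median of -7.14 to -6.29 in 7 healthy samples, and from -9.84 through -7.93 to -6.81 in 8 tumor-bearing samples. The 75-base assay ran from -9.07 through -7.05 to -6.14 in 7 healthy samples and from -8.48 through -7.72 to -7.17 in 7 tumor-bearing samples. Both ranges overlapped. The differences were -0.45 ± 0.43 and -0.50 ± 0.36 (limma, adjusted p = 0.72 and 0.66). The first turned to 0.25 without panels D and G, to 0.31 with the panel as fixed and to 1.72 with missing reactions at the largest Cq.

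Il12b was also higher at day 21 than at day 14 in healthy mice, again short of the threshold. The day 21 healthy mean was -5.88 ± 0.24 (SD, n = 3) for the 63-base and -6.11 ± 0.47 for the 75-base assay, and the next group in order lay 1.32 and 1.12 lower, more than the larger SD of the 2 groups compared. Below it, the other 5 groups of each assay followed at gaps smaller than their SD. Day 21 minus day 14 in healthy mice was 1.56 ± 0.56 and 1.12 ± 0.46 (limma, adjusted p = 0.16 and 0.20), and 3.94 and 3.74 with missing reactions at the largest Cq. In tumor-bearing mice it was 0.13 ± 0.54 and 0.35 ± 0.46 (limma, adjusted p = 0.96 and 0.85). The tumor-bearing minus healthy difference at day 21 minus that at day 14 was -1.43 ± 0.77 and -0.77 ± 0.64 (limma, unadjusted p = 0.075 and 0.24, adjusted p = 0.74 and 0.91). For day 21 minus day 7 it was -1.66 ± 0.90 and -1.31 ± 0.74 (limma, unadjusted p = 0.079 and 0.090). None of these passed, so the day 21 difference was not shown to depart from those of the earlier days.

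Il23a, the p19 chain of IL-23, was likewise lower in tumor-bearing mice at day 21 in both assays, and at day 14 in 1 of them, with no difference past the threshold. The 109-base assay read -8.72, -8.95 and -8.68 in the healthy day 21 samples and -9.87, -11.11 and -10.44 in the tumor-bearing ones. The 3 healthy values were close together and above every tumor-bearing value. The difference was -1.69 ± 0.70, or 0.309-fold with an interval of 0.113 to 0.851 (limma, unadjusted p = 0.025, adjusted p = 0.43).

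With the 61-base assay of Il23a the day 21 values were -8.68, -8.54 and -7.55 in healthy and -9.50, -9.25 and -8.39 in tumor-bearing mice. These groups overlapped, since 1 tumor-bearing sample lay above 2 healthy ones. The difference was -0.79 ± 0.52 (limma, adjusted p = 0.73).

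At day 14 the 2 Il23a assays parted. The 109-base assay ran from -10.83 through a median of -9.46 to -9.01 in 6 healthy samples and from -12.35 through -11.40 to -8.81 in 8 tumor-bearing samples. Most tumor-bearing samples were low, but the highest value of all also came from this group. The difference of -1.32 ± 0.48 (0.40-fold, interval 0.20 to 0.80) had an unadjusted p of 0.012 and an adjusted p of 0.23 (limma). Leaving out tumor-bearing replicate 20 alone, the highest of the group, put it at -1.66 with an adjusted p of 0.044 (limma). Of 16 fits that each left out 1 replicate, this was the 1 that passed. Over the 16 the difference ran from -1.66 to -1.10, with adjusted p up to 0.47 (limma). It was -0.87 with Cq values above 30 left missing, and turned to 0.92 when reactions without a Cq took the largest one, which fills in 2 healthy samples.

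The 61-base assay of Il23a at day 14 ran from -11.19 through -9.74 to -8.69 in 7 healthy samples and from -10.54 through -9.95 to -9.18 in 6 tumor-bearing samples, the second range inside the first. Its difference was -0.03 ± 0.36 (limma, adjusted p = 0.98). At day 7 this assay read -8.23, -9.42 and -9.21 in healthy mice and -8.62 and -8.24 in the 2 tumor-bearing mice with a value. The 109-base assay at day 7 read -10.64, -9.66 and -8.27 in healthy and -9.21, -9.02 and -8.86 in tumor-bearing mice. Both day 7 differences were above 0 and within the scatter, at 0.51 ± 0.58 and 0.49 ± 0.70 (limma, adjusted p = 0.997 for both).

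Over time Il23a was lower at day 14 than at day 7 in tumor-bearing mice, by -1.36 ± 0.53 and -1.93 ± 0.60 in the 61- and 109-base assays (limma, adjusted p = 0.41 and 0.22). The first turned to 0.61 with missing reactions at the largest Cq. With Il27 these made 3 of 7 members at an unadjusted p under 0.05 in either direction, beside 8.58% of all assays. In healthy mice the 61-base assay was higher at day 21 than at day 14 by 1.54 ± 0.45 (limma, unadjusted p = 0.0025, adjusted p = 0.097), the smallest adjusted p of any member in that contrast. There 3 of 7 members were higher at an unadjusted p under 0.05, beside 9.17% of all assays, 0.346% passed, and 0 of 7 members lay below 0, beside 52.1%. The 61-base value passed the threshold, at 1.74 with an adjusted p of 0.044 (limma), in 1 of 11 fits that each left out 1 replicate. That fit left out healthy replicate 13, the highest of its day 14 group, and the largest adjusted p of the 11 was 0.38 (limma). The 61-base value also passed without both day 14 samples of panel E (1.73, limma adjusted p = 0.044), while the 109-base assay gave 0.86 ± 0.62 (limma, adjusted p = 0.52). The tumor-bearing minus healthy difference of the 109-base assay at day 14 minus that at day 7 was -1.81 ± 0.85, and at day 21 minus day 7 it was -2.19 ± 0.99 (limma, unadjusted p = 0.045 and 0.039, adjusted p = 0.993 and 1). The former turned to 0.43 with missing reactions at the largest Cq. In the latter contrast 1.25% of assays were lower at an unadjusted p under 0.05.

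Il27, the p28 chain, had its lowest group mean at day 7 in tumor-bearing mice, with no difference between conditions past the threshold. At day 7 the healthy samples read -8.30, -7.93 and -9.43 and the tumor-bearing samples -10.29, -10.32 and -9.37. Of the tumor-bearing samples, 2 were below all others, and the other one lay just above the lowest healthy sample. The difference was -1.44 ± 0.42, or 0.369-fold with an interval of 0.203 to 0.671 (limma, unadjusted p = 0.0022, adjusted p = 0.73). It had the smallest unadjusted p of the 565 assays tested at that day, and 0 assays passed the adjusted threshold.

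At day 14 Il27 did not separate the conditions. The 8 healthy samples ran from -9.93 through -8.93 to -8.32 and the 8 tumor-bearing samples from -9.17 through -8.52 to -8.04. The ranges overlapped, and the difference was 0.42 ± 0.27 (limma, adjusted p = 0.62). At day 21 the healthy samples read -8.82, -8.54 and -8.52, and the 2 tumor-bearing samples with a Cq read -9.77 and -8.93. Both were below the healthy samples, with a difference of -0.71 ± 0.47 (limma, adjusted p = 0.73) that rests on 2 values, since the other tumor-bearing reaction gave no Cq. With that reaction set to the largest Cq it was -4.69 (limma, adjusted p = 0.37).

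Within tumor-bearing mice Il27 was higher at day 14 than at day 7 by 1.46 ± 0.35, a fold of 2.76 with an interval of 1.66 to 4.59 (limma, unadjusted p = 0.00041, adjusted p = 0.059). In that contrast it ranked 4 of 571 by p, and 0.175% of assays (1 of 571) passed. Leaving out tumor-bearing replicate 6, the highest at day 7, gave 1.78 (limma, adjusted p = 0.040). Leaving out replicate 16, the lowest at day 14, gave 1.55 (limma, adjusted p = 0.045). Of 11 fits that each left out 1 replicate, these 2 passed. Over the 11, estimates ran from 1.29 to 1.78 and adjusted p from 0.040 to 0.37 (limma). The panel as fixed gave 1.43 (limma, adjusted p = 0.45). In healthy mice the same step was -0.39 ± 0.35 (limma, adjusted p = 0.70). The test of the difference between the conditions, the day 14 effect minus the day 7 effect, was 1.86 ± 0.50 (limma, unadjusted p = 0.0011, adjusted p = 0.27, rank 2 of 564), where 0% of assays passed and 3.72% had an unadjusted p under 0.05. The day 21 effect minus the day 14 effect was -1.13 ± 0.54 (limma, unadjusted p = 0.048, adjusted p = 0.74), beside 0% of assays past the threshold and 1.23% lower at an unadjusted p under 0.05. It was -5.09 with the missing reactions at the largest Cq.

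Il12a, the p35 chain of IL-12, gave 2 different pictures in its 2 assays. At day 14 the 68-base assay ran from -11.30 through -9.60 to -7.54 in 7 healthy samples and from -11.41 through -8.13 to -6.59 in 8 tumor-bearing samples. The 56-base assay ran from -11.46 through -9.58 to -8.39 and from -10.88 through -10.00 to -9.14 in 8 and 8. The groups overlapped in both. The differences had opposite signs, 1.05 ± 0.67 and -0.37 ± 0.47 (limma, adjusted p = 0.62 and 0.80). The first was 1.93 without panels D and G, 1.94 with the panel as fixed and 2.95 with missing reactions at the largest Cq (limma, adjusted p = 0.33, 0.42 and 0.64), and averaging both assays gave 0.29.

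At day 21 Il12a read -8.14, -8.23 and -8.37 in healthy mice by the 68-base assay, and -7.44, -10.38 and -7.83 in tumor-bearing mice. The healthy samples were close together and 1 tumor-bearing sample, replicate 27, was low, so the groups overlapped. The difference of -0.30 ± 0.997 (limma, adjusted p = 0.995) turned to 0.62 without that sample. By the 56-base assay the values were -8.71, -9.46 and -8.90 against -12.26, -9.96 and -8.78, and here a different sample, replicate 26, was the low one. That difference was -1.31 ± 0.73 (limma, adjusted p = 0.68). It was -0.37 without replicate 26 and -2.06 without tumor-bearing replicate 28.

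At day 7 Il12a read -9.99, -8.14 and -9.53 in healthy and -7.94, -7.34 and -9.70 in tumor-bearing mice by the 68-base assay, and -11.72, -10.22 and -8.98 against -10.24, -11.13 and -10.06 by the 56-base assay. All overlapped, with differences of 0.90 ± 0.997 and -0.16 ± 0.73 (limma, adjusted p = 0.997 for both). In the order of group means no neighbouring groups of either Il12a assay were further apart than the larger of their SDs.

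**Figure D2:**
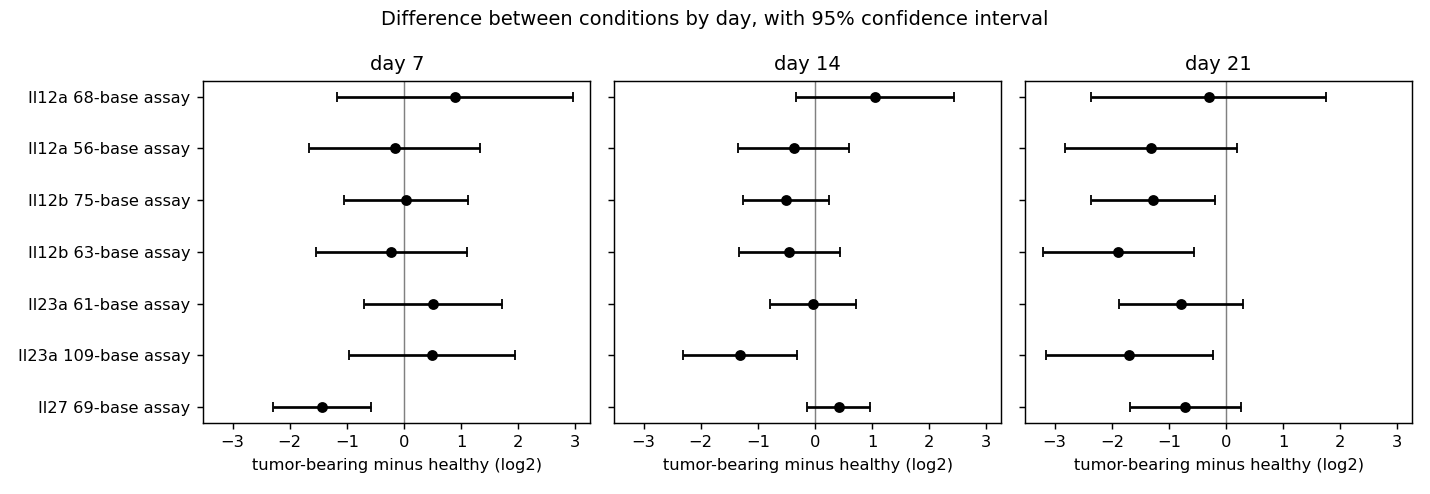
Tumor-bearing minus healthy difference in log2 relative quantity (horizontal axis) for the 7 assays at each day, with points for the limma estimate and bars for its 95% confidence interval. All 7 points lie below 0 at day 21, from -1.88 to -0.30, and 3 intervals there exclude 0 before adjustment.

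Across the 4 genes, 0 of 7 member assays passed an adjusted p of 0.05 in any contrast between conditions (limma). At day 7, where 0% of 565 assays passed, 1 member was lower at an unadjusted p under 0.05, beside 1.24% of all assays. At day 14, where 2.38% of 588 passed, 1 member was, beside 6.97%. At day 21, where 1.22% of 573 passed, 3 members were, beside 4.19%. In the mean over the 3 days, where 2.5% of 559 passed, 4 members were, beside 4.83%. Those 4 were both Il12b assays at -0.85 ± 0.33 and -0.58 ± 0.27, the Il23a 109-base assay at -0.84 ± 0.37 and Il27 at -0.58 ± 0.23 (limma, adjusted p from 0.35 to 0.53). With the panel fitted as fixed, both Il12b assays, at -0.60 and -0.59, had an unadjusted p of 0.12 and 0.11 (limma). With missing reactions at the largest Cq the Il12b 63-base mean was -0.13, the Il23a 109-base mean -0.092 and the Il27 mean -1.91. In that setting Il27 at day 7 and the 3 assays at day 21 kept their values but had an unadjusted p from 0.39 to 0.65 (limma).

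At day 21 all 7 members lay below 0, with a median difference of -1.28, where the median of all assays was -0.0013 and 50.1% of them were below 0. The groups did not overlap, with tumor-bearing lower, for 4 of the 7, namely both Il12b assays, the Il23a 109-base assay and Il27. Among all assays, 8.03% were so separated in that direction and 10.3% in the other. At day 7 and day 14 no member was separated in either direction. At day 7, 3 members lay below 0 with a median of 0.03, and at day 14, 5 did with a median of -0.37, beside 46% and 62.6% of all assays. In the mean over the days 6 of 7 did, with a median of -0.58, beside 58.3%. At day 7, 4.25% of all assays were separated lower and 4.96% higher, and at day 14, 0% and 0.68%. All 7 assays were read in the same samples, at day 21 against the same 3 healthy controls, and 6 of them are pairs on 1 gene, so these counts are not independent.

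At day 21 the pairs on a common panel were formed from all samples of both groups, so they re-match values already compared. Both Il12b assays, the Il23a 109-base assay and Il27 had groups that did not overlap. For them every possible pairing is lower in the tumor-bearing sample. The Il12b 63-base assay was lower in the tumor-bearing sample in 3 of 3 pairs, by -1.26 to -2.65. The 75-base assay was lower in 3 of 3, by -0.59 to -2.07. The Il23a assays were lower in 3 of 3 each, with medians of -0.82 and -1.76, and Il27 in 2 of 2. The Il12a assays were lower in 1 of 3 and 2 of 3.

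At day 7 the pairs had Il27 lower in 2 of 3, by -1.99 and -2.39, and at 0.06 in the third. At day 14 the Il12a 68-base assay was higher in 3 of 3 pairs, by 1.70 to 2.52, while over all samples, panels D and G included, its difference was 1.05. The Il23a 109-base assay was lower in 3 of 4, and its 61-base assay higher in 3 of 4. These counts are values with no test.

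**Figure D3:**
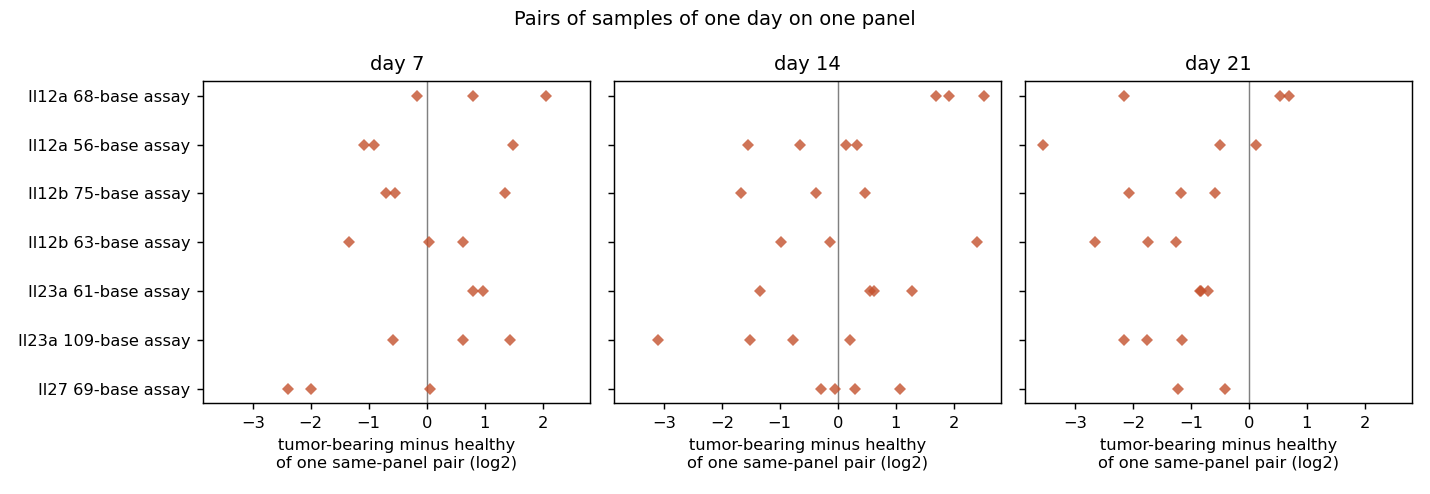
Tumor-bearing minus healthy difference in log2 relative quantity (horizontal axis) of each pair of samples taken on the same day and run on the same panel, 1 diamond per pair with both values, for the 7 assays at each day. At day 21 every Il12b, Il23a and Il27 pair lies below 0. Except for the Il23a 61-base assay, this follows from groups that do not overlap.

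The assays of a gene read the same samples and differed in how far they tracked each other. For Il12b the 2 assays correlated over 26 samples with Pearson r = 0.65 and Spearman rho = 0.66 (permutation p = 0.00029 and 0.00023, two-sided, adjusted p for r = 0.0061 over 21 pairs of member assays). For Il23a r was 0.45 and rho 0.50 over 22 samples (permutation p = 0.038 and 0.020, adjusted p for r = 0.26). For Il12a r was 0.18 and rho 0.10 over 27 samples (permutation p = 0.37 and 0.63, adjusted p for r = 0.53). Without the 2 samples farthest from the median of the first assay, r was 0.61, 0.53 and -0.06 in turn.

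The Il12a assays differed from each other by -1.95 to 4.82 on the log2 scale in single samples. Over all 77 pairs of assays of one gene with at least 20 samples, in 44 genes, the median r was 0.46, and 16 pairs had a lower r than Il12a. Among the 16 pairs whose later assay had a median Cq above 25, Il12a had the lowest r, in a range of 0.18 to 0.73. On deviations from group means the Il12b pair had r = 0.47 (permutation, adjusted p = 0.19), and 0 of the 21 pairs passed. On deviations from panel means it was 0.68 (permutation, adjusted p = 0.0025).

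**Figure D4:**
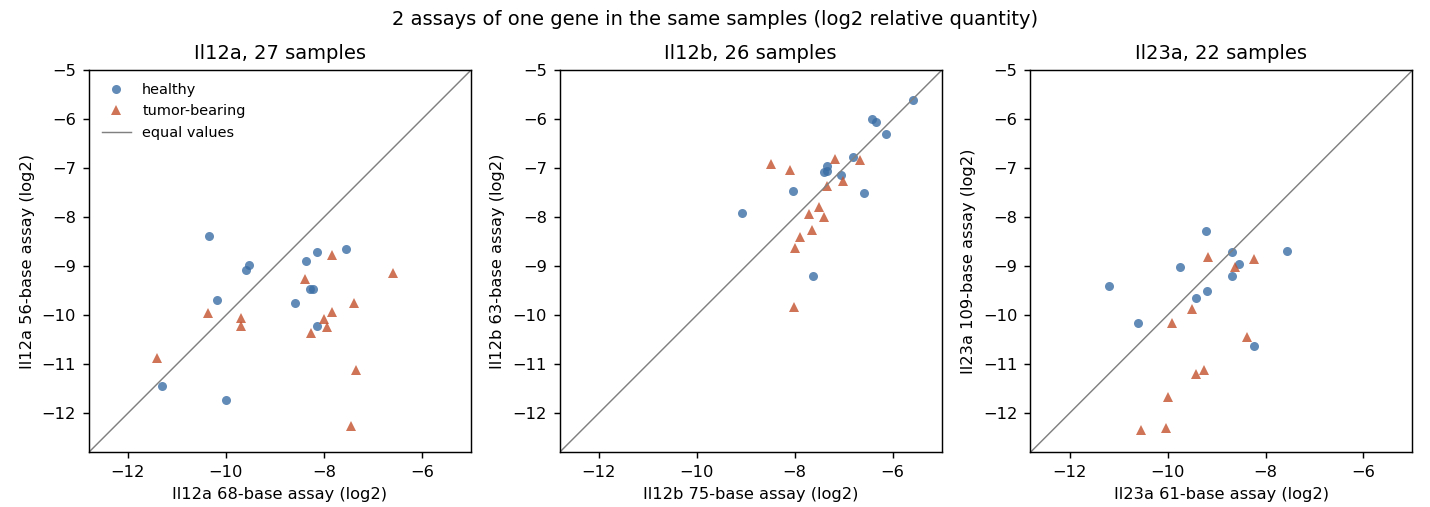
Log2 relative quantity of one assay of a gene (horizontal axis) against the other assay of the same gene (vertical axis), 1 point per sample with both values, circles for healthy, triangles for tumor-bearing, and a line of equal values. Il12b points follow the line (r = 0.65), whereas Il12a points scatter (r = 0.18).

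Chains of different genes did not correlate past the threshold in any pair across genes. The nearest was the Il12b 63-base with the Il23a 109-base assay, the 2 chains of IL-23, at r = 0.48 and rho = 0.55 over 25 samples (permutation p = 0.014 and 0.0049, adjusted p for r = 0.14). Without the 2 farthest samples r was 0.45, and on deviations from group means it was 0.20. Il12a with Il12b, the chains of IL-12, gave r from 0.20 to 0.38 in 4 pairings. Il27 with the other 6 assays gave r from -0.24 to 0.06.

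The receptor chains and the IL-27 partner, fixed as a list of 7 genes, were measured by 7 assays, of which 0 passed in any contrast between conditions and 0 had an unadjusted p under 0.05 (limma). At day 21 the smallest p belonged to Il12rb2, the signalling chain of the IL-12 receptor, at -0.49 ± 0.29 (limma, adjusted p = 0.72), and to Ebi3 at 0.27 ± 0.20 (limma, adjusted p = 0.81). The largest difference was that of Il12rb1, at -0.58 ± 0.68 (limma, adjusted p = 0.92). Ebi3, which pairs with the Il27 product, varied little over the groups, with means from -3.92 to -3.65. Its day 7 difference of 0.17 ± 0.20 stood beside -1.44 for Il27. Il23r, the chain specific to IL-23, was late and scattered, with group means from -10.56 to -9.07.

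Downstream genes also gave no call. Of the signal transducers 6 genes were measured, with 0 of 6 assays past the threshold at any day. Stat4, which transmits the IL-12 signal, had the smallest p, at -1.12 ± 0.34 at day 21 (0.46-fold, limma, unadjusted p = 0.0033, adjusted p = 0.14), followed by Stat3 at 0.81 ± 0.52 (limma, adjusted p = 0.73). Of the T helper and natural killer response genes, 0 of 12 assays tested at day 21 passed, with a median of -0.50. There the smallest p belonged to Cxcl9, an interferon-induced chemokine, at -1.24 ± 0.88, and to Il2 by its 82-base assay at -1.48 ± 1.13 (limma, adjusted p = 0.78 and 0.86). Il17a, a target of IL-23 signalling, gave a Cq in 0 of 28 samples, Il22 and Il21 in 1 each and Il17f in 13.

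Ifng, the main product of IL-12 signalling, was read by 2 assays. Its 100-base assay was lower in tumor-bearing mice at day 7, at -3.25 ± 0.96 (limma, unadjusted p = 0.0026, adjusted p = 0.73), and stood at -0.12 ± 0.85 at day 21. Its 63-base assay gave -1.20 ± 0.88 at day 7 and -0.56 ± 0.79 at day 21 (limma, adjusted p = 0.997 and 0.986). Of 20 assays for inducers of these cytokines in antigen-presenting cells, 0 passed at any day, with a median of -0.08 at day 21. The smallest p there were those of Cd40lg and Tlr2 (limma, adjusted p = 0.68 for both). Cd40lg, the T cell ligand that triggers IL-12 release, was at 4.57 ± 2.48. Its assay was late, with a median Cq of 29.6 and a value in 23 of 28 samples. It was not among the 19 of these assays tested at day 7. Tlr2, a receptor for bacterial lipoproteins, was at -0.49 ± 0.27.

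Of 6 assays for dendritic cell and antigen presentation markers, 1 passed lower at day 21, beside 0.175% of all assays lower past the threshold. This was Ccr7, the homing receptor of mature dendritic cells, with a tumor-bearing minus healthy difference of -1.18 ± 0.29 (0.44-fold, limma, adjusted p = 0.044). Ccl22 was at -1.14 ± 0.30 (limma, adjusted p = 0.073) and Ccl17, also a chemokine of dendritic cells, at -1.20 ± 0.59 (limma, adjusted p = 0.57). Cd74, Cd80 and Cd86, which serve antigen presentation and costimulation, stood at -0.07, -0.15 and 0.18. All 6 markers were detected in at least 27 samples, so none was at 0. The summed linear quantity of the 5 assays measured in every sample ranged from 0.441 to 0.525 over the healthy and from 0.399 to 0.469 over the tumor-bearing scaffolds at day 21, which overlapped. This sum leaves out Ccl22 and adds assays that can differ in efficiency. Cd80, at a median log2 of -2.5, weighs more in it than Ccr7 at -4.9 or Ccl17 at -7.4. Its overlap therefore does not speak for Ccr7, Ccl17 or Ccl22.

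The Ccr7 call at day 21 was lost in 10 of 15 alternative settings, with adjusted p up to 0.28 when single samples were left out (limma), and kept its sign in all of them. In the mean over the 3 days both Ccr7 (-0.81 ± 0.15, limma, adjusted p = 0.0025) and Ccl22 (-0.69 ± 0.15, limma, adjusted p = 0.0071) passed lower, beside 0.716% of all assays. Which cells carried the Ccr7 and Ccl22 transcripts, and their part in the Il12b and Il23a differences, was not tested.

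T cell markers lay below 0 in 5 of 5 assays at each day, beside 46%, 62.6% and 50.1% of all assays at days 7, 14 and 21. Their medians were -0.54, -0.72 and -0.73, and 0 passed. The 5 assays were read in the same samples, so these counts are not independent. Monocyte and macrophage markers passed in 0 of 6, with a median of 0.43 at day 21. Neutrophil genes were higher in tumor-bearing mice in 9 of 9 assays at day 14 and 4 of 9 at day 21, the latter being Camp, Ela2, Ltf and Prtn3, beside 1.7% and 1.05% of all assays higher. In the mean over the days 8 of 9 were, beside 1.79%. The gene lists were chosen with earlier results of these data known, so these counts are not independent evidence. Setting missing reactions to the largest Cq left 3 at day 14 and 0 at day 21, fitting only the samples of day 14 left 5, and at day 21 1 or 2 were left without healthy replicate 23 or 24. The 3 neutrophil assays measured in every sample were Fpr1, the S100a8 63-base assay and S100a9, none of which passed at day 21. Their summed quantity leaves out Camp, Ela2, Ltf and Prtn3. It ranged from 2.13 to 3.51 over the healthy and from 5.57 to 10.6 over the tumor-bearing scaffolds at day 21. Those groups did not overlap, and 10.3% of all single assays were separated in that direction. Housekeeping genes passed in 0 of 18 assays, with a median of 0.05 at day 21. The part of these shifts in the member differences was not tested.

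**Figure D5:**
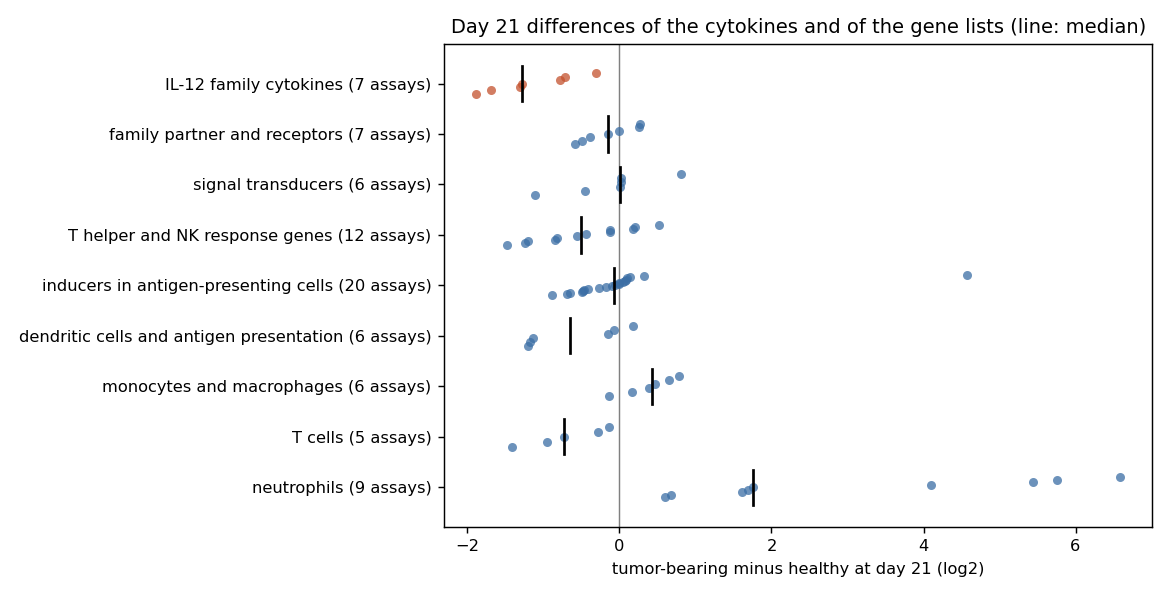
Tumor-bearing minus healthy difference at day 21 in log2 relative quantity (horizontal axis) for the 7 IL-12 family assays and for the assays of 8 gene lists, 1 point per assay and a line at each median. The cytokine median is -1.28, the receptor median -0.14 and the neutrophil median 1.76.

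The assays of other genes whose values followed the members most closely were ranked by Pearson r over samples, among 545 to 554 assays with at least 20 common samples. This ranking is a description without p. The Il12b 75-base assay was nearest to Ctla4, Stat4 and Ccl5 (r = 0.72, 0.71 and 0.64), and the 63-base assay to Ccr9, Slurp1 and Itgal (r = 0.76, 0.70 and 0.70). The Il23a 61-base assay was nearest to Saa3, Ccl17 and Cxcl3 (r = 0.67, 0.64 and 0.63), and the 109-base assay to Il1f9, Cxcl2 and Il1b (r = 0.75, 0.74 and 0.67).

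For Il12a the 68-base assay was nearest to Trem1, Cxcl5 and Il1b (r = 0.77, 0.75 and 0.73), and the 56-base assay to Ccrl1, Csf2rb and Tgfb1 (r = 0.64, 0.63 and 0.56). Il27 was nearest to Cxcr7, Il18bp and Ifng, at r = 0.50, 0.50 and 0.47. No gene was among the 3 nearest of both assays of Il12a, Il12b or Il23a. On deviations from group means Stat4 stayed among the 3 nearest of the Il12b 75-base assay (r = 0.64), Ccr9 of the 63-base assay (r = 0.74), Trem1 and Cxcl5 of the Il12a 68-base assay (r = 0.80 and 0.84), and Il1f9 and Il1b of the Il23a 109-base assay (r = 0.64 and 0.63). For Il27 the 3 nearest on that measure were Klrg1, Cd40 and Prg2 (r = 0.59, 0.53 and 0.50).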

How the data were processed

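RNA of 28 biopsied scaffolds was measured by TaqMan OpenArray RT-qPCR, per the labels' protocols. The authors deposited raw Cq values, normalized values that are ratios on a linear scale, and fold changes of their own, which for the 7 member assays match those from plain group means of log2 values. The reference genes are not named per the file headers; the mean Cq of 5 of the 16 assays flagged as references, whose names are not reported here, gave each sample's offset between Cq and log2 value to within 3e-05. The software that called Cq is not given in the sources used here.

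All values were put on the log2 scale of the deposited ratios, and reactions without a Cq stayed missing. Assays with a value in at least 50% of the samples of 1 group and 2 values in each of 2 groups were kept (601). limma 3.58.1 in R 4.3.3 fitted 1 mean per group over all 28 samples with the panel as a random block (duplicateCorrelation, statmod 1.5.0, correlation 0.054). Each contrast needed 2 values per group, and p-values were adjusted by Benjamini-Hochberg over all assays tested in it, threshold 0.05. Scripts were tested on simulated data. Correlations used 100000 permutations (scipy 1.17.1, numpy 2.4.6). Replicate numbers run from 1 to 28 across the groups, so no number pairs mice. The number of samples limits precision, and intervals are 95% confidence intervals of the fit. Members and gene lists were chosen with earlier results of these data known. Named genes were all member assays, list genes past the threshold or with the 2 smallest p, and the 3 assays nearest to each member; other list genes were named after their values were seen. Alternatives were other panel handling, scaling, missing-value rules, filters and left-out samples.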

Additional observations from a re-analysis of the deposited data

How the results depend on the processing

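No analysis paired by replicate number was possible because these numbers are not shared between groups; shared panels entered as a block and as same-day pairs. Of 41 member results checked, 27 kept their sign and their side of the threshold in every alternative that left out no replicate. No alternative of that kind brought a comparison between conditions past the threshold. The sign of small differences turned in some. A fixed panel term turned the day 14 difference to 0.31 for the Il12b 63-base assay and 0.28 for the Il23a 61-base assay. Without panels D and G these were 0.25 and 0.28, and the Il23a 61-base mean over days became 0.0038. Centring raw Cq on the sample median gave 0.081 for the Il23a 61-base assay at day 14, and moved the median of all assays at that day from -0.084 to 0.027.

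Setting missing reactions to the largest Cq gave -3.59 for the Il23a 61-base assay at day 7, and at day 14 1.72 for the Il12b 63-base and 0.92 for the Il23a 109-base assay. It gave 2.42 and 0.43 for the Il23a 61- and 109-base effects at day 14 minus day 7, 2.80 for the 61-base effect at day 21 minus day 7, and 0.61 for the 61-base assay in tumor-bearing mice from day 7 to 14. These values rest on imputed reactions. Alternatives chosen after seeing the data were leaving out the 2 samples with the fewest assays, which gave 0.19 for the Il23a 61-base assay at day 14, and averaging the assays of a gene. That average was -0.050 for Il12a over the days, against 0.55 for the 68-base assay, 0.37 and 0.29 at days 7 and 14, against the 56-base assay, and -0.094 for Il12b at day 7, against the 75-base assay. On deviations from group means 0 pairs of member assays correlated past the threshold, against 1, the Il12b pair having r = 0.47 (permutation, adjusted p = 0.19), and without the 2 farthest samples the Il12a pair had r = -0.060. The cause of these changes was not tested.

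Leaving out each replicate in turn gave day 7 differences from -0.85 to 0.46 (Il12a 56-base), -0.41 to 0.31 (Il12b 75-base), -0.55 to 0.26 (Il12b 63-base) and -0.013 to 1.13 (Il23a 109-base). At day 14 the Il23a 61-base assay ran from -0.28 to 0.16 and the 109-base assay from -1.66 to -1.10. At day 21 the Il12a 68-base assay ran from -0.83 to 0.62. The Il23a 61-base mean over days ran from -0.20 to 0.024. At day 21 the Il12b 63-base assay stayed between -2.14 and -1.61. Late Cq values limit all 7 assays, and groups of 3 leave wide intervals. The number of assays called at day 14, 14 of 588, became 6 with only the samples of that day and 4 with imputed reactions, and at day 21, 7 of 573, it became 0 with imputed reactions (limma), where the mean over the days went from 14 to 4.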
